A study of Homo sapiens with 4 samples.

Results

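The genes described here encode parts of the machinery that unwinds and copies DNA in S phase: the helicase subunits MCM2, MCM3, MCM4, MCM5, MCM6 and MCM7, the helicase partners CDC45 and GINS2, the sliding clamp PCNA and the flap endonuclease FEN1. Members were taken by gene name from 4 tables of ribosome protected fragments (RPFs, the mRNA pieces that a ribosome shields from nuclease), and 9 of the 10 names were found among 9271 transcripts. FEN1, which trims the flaps left between Okazaki fragments, had no row in any table. In GENCODE v44 FEN1 lies at chr11:61792911-61797238 on the plus strand, and FADS2 overlaps it on the same strand from 61792980. The authors discarded transcripts that overlapped a neighbor on the same strand, and whether that step removed FEN1 was not tested.

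The libraries were made from HEK293T, a human embryonic kidney line with a simian virus large T antigen, grown in DMEM with 10% FBS. There were 2 untreated libraries (A and B) and 2 libraries (A and B) from cells that received G418 at 0.5 mg/mL for 24 hr. G418 is an aminoglycoside that binds the ribosomal decoding center and promotes readthrough of stop codons. The methods call A and B biological replicates, and one line at one dose and one time was used. In this line large T antigen binds the retinoblastoma protein, a repressor of E2F factors, and both groups share this.

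The MCM2-7 proteins form a ring of 6 different subunits that is loaded around DNA at replication origins in G1 phase, a step called licensing. In S phase CDC45 and the GINS complex join the ring to form the active helicase, which travels with each replication fork, and PCNA encircles the new duplex behind it and tethers DNA polymerases and processing enzymes such as FEN1. Transcription of these genes is classically driven by E2F factors and rises as cells pass from G1 into S phase.

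Reads on mRNAs numbered 2440204 to 6082600 per library, and untreated B was the shallowest. Of 9 markers of HEK293 cells 7 were listed in all 4 tables, with VIM at 533 to 658 RPKM, NEFL at 46.6 to 54.2 RPKM and KRT18 at 26.7 to 29.4 RPKM. Of 8 markers of haematopoietic, hepatocyte and fibroblast cells, 1 was listed in all 4 tables, COL1A1 at 3.59 to 5.54 RPKM, while PTPRC, CD3E, ALB, APOA1, COL1A2 and DCN had no row in any table. The tables hold no transcript below about 1 RPKM in the CDS. VIM fell under G418 (log2 fold change -0.32), all 7 HEK293 markers had a negative value, and their part in the results was not tested.

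The readthrough results turn on the normal termination codon (NTC) of each gene. The sequences around it are given first, 12 nt of coding sequence, then the stop codon with the +4 nucleotide in capitals, then 11 nt of 3′UTR, as transcript sense DNA (T for U) from GENCODE v44 on hg38. The deposited CDS length, 4 nt stop signal and first in-frame stop of each transcript equaled those of the annotation for all 9 genes. The 3′UTR lengths were not part of this check. For MCM7 and CDC45, whose transcript versions differ, 145 and 126 nt of 3′UTR were counted against 204 and 129 nt in the annotation. All 9 stop codons lie in the last coding exon of the counted transcript.
MCM2: ctgcagcagttcTGAGgccctatgcca
MCM3: atcttcctcatcTGAGgaggcctcgtc
MCM5: taccgcctcaagTGAGtcgcgccgcct
MCM6: ttgctcgaagatTGAGatagtgaaagt
MCM7: atcacttttgtcTGATtccagcctgct
CDC45: tccctcctgtccTAGGaatttgattct
GINS2: tctcaggacttcTAGAgaaaggcctgg
PCNA: gaagaaggatctTAGGcattcttaaaa
The stop codons lie at chr3:127621771-127621773 (MCM2, plus strand), chr6:52264588-52264590 (MCM3, minus), chr22:35424253-35424255 (MCM5, plus), chr2:135840835-135840837 (MCM6, minus), chr7:100092932-100092934 (MCM7, minus), chr22:19518906-19518908 (CDC45, plus), chr16:85678212-85678214 (GINS2, minus) and chr20:5115283-5115285 (PCNA, minus). MCM4 is named only, and its signal as deposited was UGA followed by A. All 6 helicase subunits thus ended in UGA, the codon of 50.7% of the 9271 transcripts, and CDC45, GINS2 and PCNA ended in UAG, the codon of 22.1%. None ended in UAA, the codon of 27.3%. MCM2, MCM3, MCM5 and MCM6 shared the same 4 nt signal, UGA followed by G, which 19.8% of transcripts carried.

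On the coding sequences MCM2, MCM3 and MCM5 fell under G418, no member rose, and the other 6 members did not pass the test, so 3 of 9 members fell against 3.21% of the 8494 transcripts tested (edgeR's quasi-likelihood test, Benjamini-Hochberg adjusted over all transcripts, threshold 0.05). The background for a rise was 5.31%. Members were chosen with earlier results of these data known, so these shares are a description only. The median log2 fold change was -0.20 over the 9 members and 0.002 over all transcripts. In these 4 bulk footprint tables fewer cells in S phase, less mRNA per cell and less translation per mRNA cannot be told apart, and RNA-seq of the same treatment was not used here.

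MCM2, the subunit whose tail also binds histones, had 739.9 and 798 CPM (CDS counts scaled by library depth and TMM factors) in untreated cells and 627 and 609 under G418. Both treated libraries lay below both untreated ones, and the gap was larger than the spread within either pair. The log2 fold change was -0.31 (SE 0.083, edgeR adjusted p = 0.0143), so that its count decreased by 19.5%.

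MCM3 had 791 and 803 CPM in untreated cells and 649 and 654 under G418. Replicates of either condition were close to each other and the conditions were well separated. Its log2 fold change was -0.29 (SE 0.081, edgeR adjusted p = 0.0215). MCM5, which with MCM2 forms the gate through which the ring opens on DNA, had 501 and 530.3 CPM in untreated cells and 427 and 428 under G418. Again both treated libraries were lower than both untreated ones. Its log2 fold change was -0.27 (SE 0.086, edgeR adjusted p = 0.0457), close to the threshold.

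The other subunits had differences of the same sign that did not pass. MCM6 had 731 and 685 CPM in untreated cells and 610.4 and 621 under G418 (log2 fold change -0.20, SE 0.083, edgeR adjusted p = 0.123). MCM7 had 1214 and 1274 against 1105 and 1050.3 (-0.21, SE 0.079, adjusted p = 0.104 in edgeR). In neither gene did the conditions overlap, although neither passed after adjustment. MCM4 had 1197 and 1167 CPM against 1046 and 1061 (-0.17, SE 0.079, adjusted p = 0.198 in edgeR).

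The partners of the ring did not move as one. CDC45, which with GINS completes the active helicase, had 246 and 244 CPM in untreated cells and 212 and 218 under G418 (log2 fold change -0.19, SE 0.093, edgeR adjusted p = 0.217). GINS2, a GINS subunit, had 159.7 and 155 in untreated cells and 166 and 171 under G418, so that both treated libraries lay above both untreated ones, the only member with that order. Its log2 fold change was 0.10 (SE 0.099, adjusted p = 0.608 in edgeR). The other GINS subunits in the tables had log2 fold changes of 0.07 (GINS1, SE 0.108) and -0.15 (GINS3, SE 0.126) with adjusted p = 0.765 and 0.511 in edgeR, and GINS4 had no row.

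PCNA had 838 and 770.5 CPM in untreated cells and 723 and 715 under G418. The treated pair was tight and the untreated pair was wide, and the gap between the lower untreated library and the treated pair was smaller than the gap within the untreated pair. The log2 fold change was -0.17 (SE 0.082, edgeR adjusted p = 0.226). The annotation lists 3 pseudogenes named after PCNA, and reads that map to several places were kept with a single alignment each, and the share of PCNA reads that could belong to the copies was not tested.

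**Figure D1:**
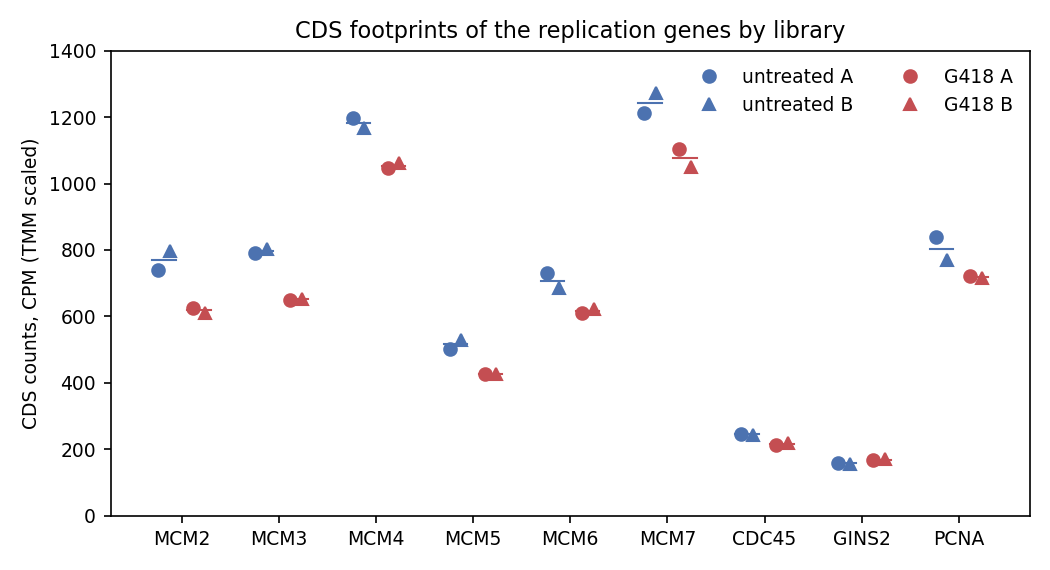
CDS counts in CPM after TMM scaling (linear axis from 0) for the 9 members in each library, with untreated libraries in blue and G418 libraries in red, circles for A, triangles for B and a short line at each pair's mean. The red points lie below the blue ones for every member except GINS2, where they lie above.

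The fitted value was below 0 for 8 of 9 members, against 49.6% of all transcripts. For 8 of 9 members both G418 libraries were below both untreated libraries, against 24.8% of all transcripts, and the 9th was GINS2 in the opposite order (26.5% of all transcripts). An unadjusted p below 0.05 was reached by 7 members, all with lower counts, against 10.1% of transcripts with such a fall. These shares describe counts in 4 libraries and members of one complex, which are not independent of each other.

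The calls depended on the scaling and on which libraries were used. With library totals in place of TMM factors, the median over all transcripts moved from 0.002 to 0.106, calls over all transcripts moved from 451 higher and 273 lower to 887 higher and 120 lower, and 0 of 9 members passed (3 at an unadjusted p below 0.05). MCM2 was then at -0.21 with an edgeR adjusted p of 0.0879 (3.37e-08 to 0.614 over its alternatives), a difference of the same sign as before while the median of all transcripts was above 0. Without either of the G418 libraries no member passed in edgeR (1 member without A and 0 without B at an unadjusted p below 0.05), although the log2 fold changes were little changed at -0.34 and -0.29 for MCM2, -0.29 and -0.29 for MCM3 and -0.27 and -0.27 for MCM5. In such fits the lone library is assumed to vary like the other pair. Without untreated A 5 members passed, and without untreated B, the shallow library, 8 passed. DESeq2 and upper quartile scaling each left MCM2 and MCM3 and lost MCM5 (adjusted p = 0.0945 and 0.0658, with 5.27e-05 to 0.707 over its alternatives). No alternative turned the sign of the CDS difference of any member.

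Between genes, levels were compared per length, as deposited CDS RPKM. PCNA, a protein of 261 codons, was the highest at 639 ± 76.1 RPKM in untreated cells and 599 ± 36.3 under G418 (SD, n = 2). MCM7 came next at 349 ± 8.85 and 318 ± 28.2, then MCM4 at 276 ± 21.5 and 258 ± 11.1. These 3 were separated from each other beyond their spread in both conditions.

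A middle group of MCM3, GINS2, MCM6 and MCM2 spanned 171 to 188 RPKM in untreated cells, and the libraries of genes next to each other in that order overlapped, while both MCM3 libraries (195 and 181) lay above both MCM2 libraries (172 and 170.2). Under G418 GINS2 stood at 202 ± 6.6 RPKM and MCM3, MCM6 and MCM2 at 145 to 162. MCM5 was at 142 ± 2.73 and 124 ± 6.37, and CDC45 was the lowest at 87.6 ± 5.56 and 80.8 ± 2.68.

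The 6 subunits sit in the ring in equal number, but their footprint densities differed. MCM7 was the highest and MCM5 the lowest in all 4 libraries, with ratios of 2.48, 2.45, 2.64 and 2.51 in untreated A, untreated B, G418 A and G418 B. The full order MCM7, MCM4, MCM3, MCM6, MCM2, MCM5 was the same in 3 libraries, and in untreated B MCM2 and MCM6 exchanged places. Of the GINS subunits with a row, GINS2 was 3.19, 2.93, 3.56 and 3.76 times the density of GINS3 in the same libraries, with GINS1 between them in each.

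Other genes of DNA replication and the cell cycle were read from 9 lists of 116 genes, of which 88 were tested: 4 rose, 5 fell and 79 did not pass. These are 4.55% and 5.68% of the genes tested, beside 5.31% and 3.21% of all transcripts, and the counts by list are a description only. No gene passed among 9 of origin licensing (median log2 fold change -0.05), 11 of origin firing and fork protection (-0.04) or 9 of replication-coupled chromatin assembly (-0.16). Of 9 replicative DNA polymerase genes 2 fell and none rose, with a list median of -0.008. These were POLD1, the catalytic subunit of polymerase delta, and POLA1, that of polymerase alpha.

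POLD1 had 183 and 216 CPM in untreated cells and 137 and 164 under G418 (log2 fold change -0.39, SE 0.107, edgeR adjusted p = 0.0196). POLA1 had 273 and 257 against 217 and 210.2 (-0.32, SE 0.0935, adjusted p = 0.0294 in edgeR). In both genes the treated libraries lay below the untreated ones.

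Of 14 genes of clamp loading, strand maturation and RPA, 1 fell and 1 rose (median -0.08). PCLAF, a PCNA-associated factor, had 140.2 and 132 CPM against 100.2 and 101 (log2 fold change -0.44, SE 0.104, edgeR adjusted p = 0.006). RNASEH2B, a subunit of the nuclease that removes ribonucleotides from DNA, had 43.6 and 28.3 against 60.1 and 59.3 (0.65, SE 0.15, adjusted p = 0.00498 in edgeR). The untreated pair of RNASEH2B was wide, but both of its values were below the treated pair.

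Of 7 genes of dNTP supply 1 fell, RRM1, the large subunit of ribonucleotide reductase (839.7 and 727 CPM against 647 and 618), with log2 fold change -0.31, SE 0.0857 and edgeR adjusted p = 0.0187. The list median was -0.23, near that of the members. Of 14 G1/S regulators 3 rose and none fell (median 0.11). CCNE1, which encodes cyclin E1, had 18.7 and 19.3 CPM in untreated cells and 32.6 and 37.1 under G418, so the treated libraries stood well above the untreated ones (log2 fold change 0.88, SE 0.166, edgeR adjusted p = 0.000779).

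CDK4, the kinase of D-type cyclins, had 194 and 202 CPM against 309 and 309 (log2 fold change 0.65, SE 0.0933, edgeR adjusted p = 3.81e-05). The third was TFDP1, the dimer partner of E2F factors, at 0.51 (SE 0.155, adjusted p = 0.0325 in edgeR), a gene outside the rule for naming genes and chosen after its values were seen. The treated libraries of both genes lay above the untreated ones.

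Of 14 mitotic kinases and regulators 1 fell, ESPL1, the protease that cleaves cohesin (log2 fold change -0.36, SE 0.102, edgeR adjusted p = 0.0246), and the list median was -0.11. The only other protein with an MCM fold that could be tested had a log2 fold change of 0.03 and did not pass. With library totals the pathway calls went from 4 up and 5 down to 6 up and 1 down, and with DESeq2 to 3 up and 1 down. Without G418 A 2 rose and 0 fell, and without G418 B 1 rose and 0 fell (6 and 7 of the 88 at an unadjusted p below 0.05 in edgeR). Without untreated A 7 rose and 18 fell, and without untreated B 7 rose and 27 fell.

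**Figure D2:**
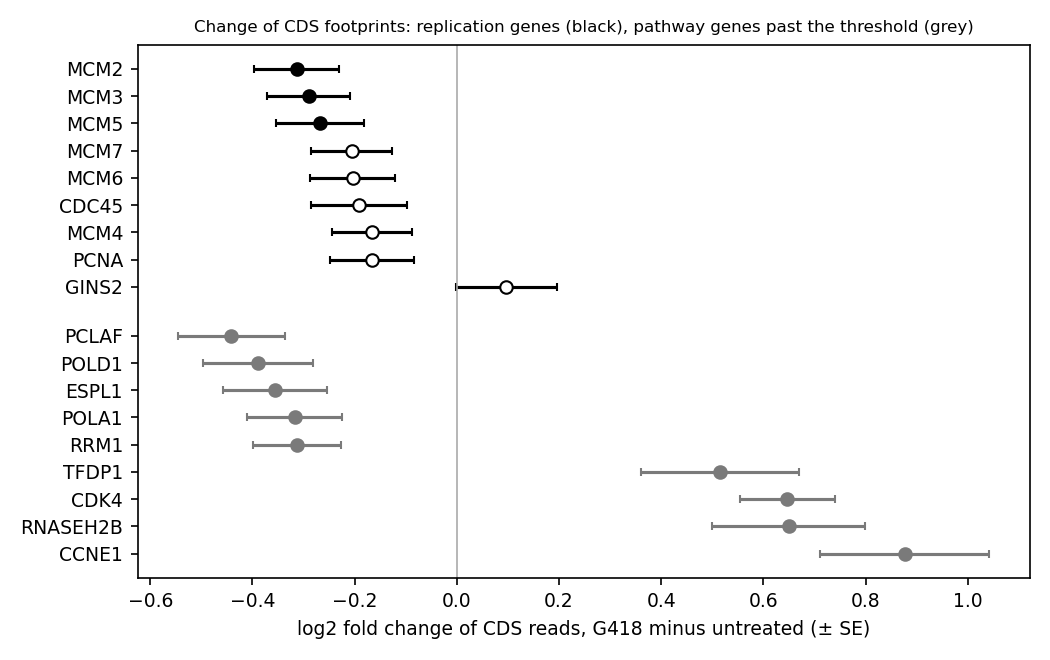
Fitted log2 fold change of CDS reads, G418 minus untreated, with bars of 1 SE, for the 9 members (black) and the 9 pathway genes past the threshold (grey), where filled points passed the adjusted threshold of 0.05. MCM2, MCM3 and MCM5 are filled at -0.31 to -0.27, the other members are open, and CCNE1 lies farthest to the right at 0.88.

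RefSeq promoters (GRCh38.p14, 250 bases before to 50 after each start) were searched for 4 E2F-type octamers, TTTGGCGC, TTTCGCGC, TTTCCCGC and TTTGCCGC, on both strands. The chromosome of MCM4 was left out for members and background, and MCM5 had no window. Of 8 members with a window, 6 held at least 1 match, MCM2, MCM3, MCM6, MCM7, GINS2 and PCNA, against 3.99% of 27305 genes with a window. FEN1 and CDC45 held none, and MCM4 and MCM5 are named only. Members are classic targets of E2F, so matches were likely beforehand, and a link to the change under G418 was not tested. The match closest to the start is printed for each gene on the gene's strand, with the octamer in capitals.
MCM2: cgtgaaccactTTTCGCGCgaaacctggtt
MCM3: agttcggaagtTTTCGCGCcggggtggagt
MCM6: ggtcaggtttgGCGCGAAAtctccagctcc
MCM7: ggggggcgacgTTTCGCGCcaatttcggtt
GINS2: ctctcgccgtgGCGGGAAAacggcggccgc
PCNA: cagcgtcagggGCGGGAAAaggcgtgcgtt
They lie at chr3:127598402-127598431 (MCM2), chr6:52284728-52284757 (MCM3), chr2:135876511-135876540 (MCM6), chr7:100101388-100101417 (MCM7), chr16:85688967-85688996 (GINS2) and chr20:5126663-5126692 (PCNA). In MCM2 and MCM6 another octamer overlaps the printed one on the other strand, and MCM3, MCM6 and MCM7 hold further matches upstream. The PCNA match lies before a longer transcript than the counted one, and the window at the counted start held none. A match of letters is no evidence of binding.

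Ribosomes continued past the stop codon of the members far more often under G418. The ribosome readthrough score (RRTS) divides the footprint density of the stretch from the NTC through the earliest stop codon in the same frame of the 3′UTR (first 3′TC) by the CDS density, so that 0 means no reads in that stretch. Summed over the 9 members, RRTS was 0.0263 and 0.0206 in untreated A and B and 0.220 and 0.224 in G418 A and B, from 61, 19, 436 and 374 reads before the 3′TC. In either untreated library 5 members had a read there, and in either treated one all 9 did. Over all transcripts of each library the summed RRTS was 0.0204 and 0.0187 in untreated A and B and 0.160 and 0.152 in G418 A and B.

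Readthrough could be tested for 8 members, and all 8 were higher under G418. The background was almost as broad, since 82.6% of 2827 transcripts tested were higher and 0.0707% lower, and treated libraries lay above untreated ones in 93.8%. With no read minimum 2615 of 5815 transcripts and 8 of 9 members were higher, and with DESeq2 1408 of 2827 and 8 of 8. Of the 8 members 6, and of all transcripts tested 89.8%, had fewer than 10 untreated reads. They reached the minimum through treated reads, which favors a rise. The counts, and the adjusted p values below for these 6 members (MCM2, MCM3, MCM5, MCM6, MCM7 and GINS2), are a description only. The median fitted log2 fold change was 4.79 over the members and 3.18 over all transcripts tested. With transcripts without any untreated read given 3 reads in the untreated group, the medians were 2.99 and 2.59.

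In the pathway lists readthrough was higher for 5 of 5 licensing genes tested, 4 of 5 of origin firing and fork protection, 4 of 5 polymerase genes, 6 of 6 of clamp loading, strand maturation and RPA, 6 of 6 of dNTP supply, 7 of 7 of chromatin assembly, 7 of 7 G1/S regulators and 9 of 9 mitotic genes, and lower for none. The share over all transcripts tested was 82.6% under the same read minimum, and these counts too are a description only.

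The members differed among themselves in both the level and the size of the increase. The MCM2 window held 7 and 1 reads in untreated cells and 107 and 97 under G418, an RRTS of 0.0203 and 0.00672 against 0.373 and 0.409. The treated libraries were close to each other and far above the untreated ones. The fitted log2 fold change was 4.55 (SE 0.34, edgeR adjusted p = 7.63e-39). An antisense lncRNA overlaps the 3′ end of MCM2 in the annotation, and antisense genes also overlap those of CDC45 (a lncRNA) and GINS2 (GSE1). Whether counting used strand was not given in the sources used here.

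MCM4 had the highest background, with 19 and 6 reads and an RRTS of 0.0812 and 0.0658 in untreated cells, against 71 and 66 reads and 0.353 and 0.382 under G418. Its treated level was near that of MCM2 while its untreated level was higher, and its log2 fold change was the smallest of the 8 at 2.25 (SE 0.30, edgeR adjusted p = 4.37e-13). PCNA, with 29 and 10 reads and an RRTS of 0.0363 and 0.0341 in untreated cells, had 141 and 108 reads and 0.209 and 0.190 under G418. Both pairs were tight and did not overlap (log2 fold change 2.48, SE 0.23, edgeR adjusted p = 4.98e-25).

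MCM7 had 5 and 1 reads in untreated cells and 54 and 37 under G418, an RRTS of 0.025 and 0.0119 against 0.302 and 0.257. The conditions did not overlap, and the 95% counting intervals of the treated values (0.227 to 0.394 and 0.181 to 0.354, exact Poisson, counting error only) overlapped each other. The log2 fold change was 3.69 (SE 0.46, edgeR adjusted p = 8.47e-15).

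MCM5 and MCM3 were the lowest members under G418. MCM5 had 0 and 1 reads in untreated cells and 25 and 19 under G418, an RRTS of 0.0776 and 0.0694 in the treated libraries. The increase was large relative to almost no reads in untreated cells, with a pooled ratio of 40.4 and a counting interval of 6.88 to 1631 (edgeR adjusted p = 4.09e-09). MCM3 had no reads in untreated cells and 7 and 9 under G418 (RRTS 0.0462 and 0.0695, edgeR adjusted p = 0.000158). With 3 reads over the untreated group as floor its ratio was 5.01, which leaves out the counting error of the treated reads.

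GINS2 had no reads in untreated cells and 24 and 23 under G418, an RRTS of 0.185 and 0.203 and a ratio of 11.3 on the same floor (edgeR adjusted p = 1.31e-09). CDC45 had 1 and 0 reads against 2 and 3, fewer than the 10 needed for a test. Its RRTS of 0.0874 and 0.150 under G418 had counting intervals of 0.0106 to 0.316 and 0.031 to 0.439, which cover most of the other members' values, so a difference from them was not detectable at this depth.

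MCM6 had the shortest stretch, with 5 codons between the NTC and the first 3′TC. The counted length is 12 nt, which leaves out the 6 nt after the NTC and includes the 3′TC. It had no reads in untreated cells and 5 and 12 under G418, an RRTS of 0.304 and 0.845 and a ratio of 5.09 on the same floor (edgeR adjusted p = 0.000136). The treated libraries differed more from each other than in any other member, and their counting intervals, 0.0988 to 0.71 and 0.437 to 1.48, overlapped.

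**Figure D3:**
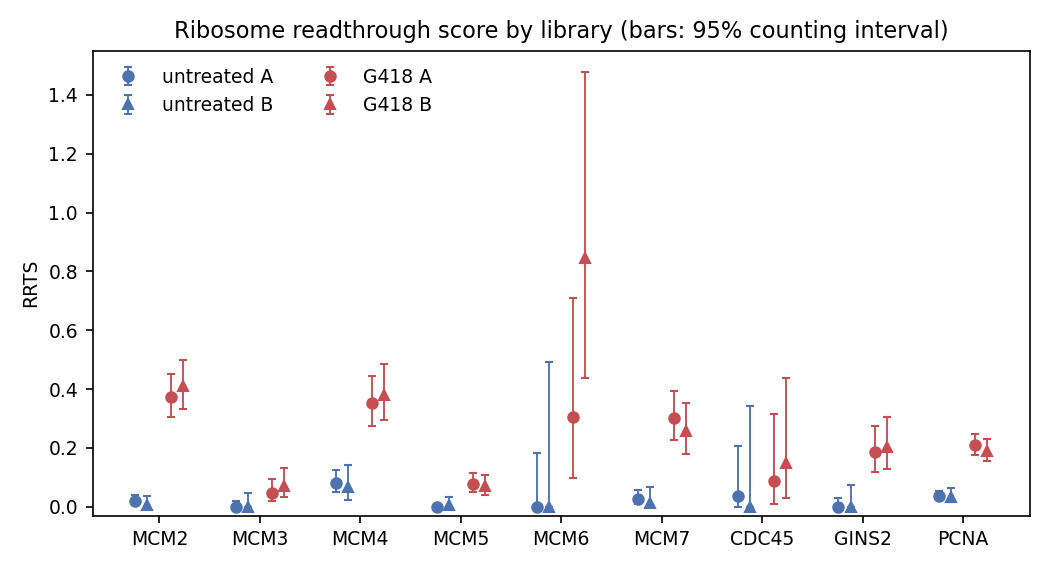
RRTS of each member in each library on a linear axis, with untreated libraries in blue, G418 libraries in red, circles for A and triangles for B, and bars for the 95% exact Poisson interval of the reads before the 3′TC. MCM2 and MCM4 lie between 0.353 and 0.409 under G418 and MCM3 and MCM5 between 0.0462 and 0.0776, while the MCM6 bars reach from 0.0988 to 1.48.

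The same 4 nt stop signal thus went with very different scores. In pooled G418 reads, the RRTS of the genes with UGA followed by G was 0.389 for MCM2, 0.057 for MCM3, 0.0738 for MCM5 and 0.555 for MCM6, against a median of 0.200 over 1375 transcripts with this signal (quartiles 0.0976 and 0.323). MCM3 and MCM5 stood at percentiles 16 and 19 of those transcripts and MCM2 and MCM6 at 81.5 and 90.2. The MCM6 score rested on 17 reads, and its counting interval in G418 A (0.0988 to 0.71) held the median of 0.200 and overlapped that of MCM5. In each G418 library the counting intervals of MCM2 (0.305 to 0.45 and 0.332 to 0.499) lay above those of MCM3 (0.0186 to 0.0953 and 0.0318 to 0.132) and MCM5 (0.0502 to 0.115 and 0.0418 to 0.108), while those of MCM3 and MCM5 overlapped.

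The printed windows of these 4 genes have little in common outside the signal. Of the 23 flanking positions MCM3 and MCM5, the pair with low scores, shared 8 bases. MCM2 and MCM6, with higher scores (that of MCM6 on 17 reads), shared 5, and the other pairs shared 4 to 7. The number shared by unrelated windows was not computed.

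**Figure D4:**
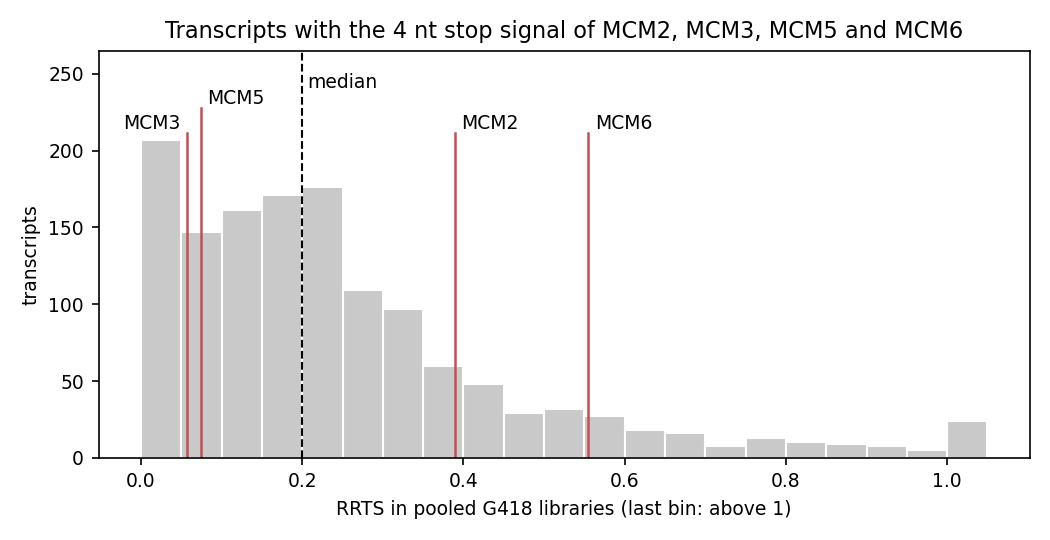
Histogram of RRTS in pooled G418 libraries (bins of 0.05, the last bin holding all values above 1) for 1375 transcripts with the signal of MCM2, MCM3, MCM5 and MCM6, with the dashed line at the median and a red line at each of these genes. MCM3 and MCM5 lie left of the median of 0.200 and MCM2 and MCM6 right of it.

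The other members were nearer to the middle of the transcripts with their own signals. MCM4 (UGA followed by A) stood at percentile 66.2 of 971 transcripts, MCM7 (UGA followed by U) at 44.9 of 486, GINS2 (UAG followed by A) at 55.1 of 445, and PCNA and CDC45 (UAG followed by G) at 59.9 and 37.6 of 441. Over all transcripts the medians were 0.277, 0.321, 0.170 and 0.159 for these signals.

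Beyond the first 3′TC, MCM6 and MCM5 were at opposite ends. In MCM6 100 and 74 reads of G418 A and B lay after the 3′TC, against 3 and 1 in untreated A and B, so most of its 3′UTR footprints came from beyond the stretch that RRTS counts. Of its pooled treated 3′UTR reads 91.1% lay there, against a median of 31.4% over 2262 transcripts with at least 20 such reads (percentile 98.2). Tested over the whole 3′UTR, the log2 fold change of MCM6 was 5.34 (SE 0.40, edgeR adjusted p = 1.58e-38). MCM6 reached the read minimum of that test through treated reads, so its p value is a description only. In that setting 2872 of 4086 transcripts tested were higher.

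Transcripts with a similarly early 3′TC had high shares too. Among 74 transcripts with a first 3′TC at the same distance the median was 78.5% (quartiles 61.3 and 85.4), and MCM6 lay above the upper quartile. Per nucleotide, its density after the 3′TC was 20.2% of that before it in G418 A and 6.21% in G418 B, and 0.0613 and 0.0525 times its CDS density. The 3′TC of MCM6 is printed with the stop codon and +4 nucleotide in capitals, and the second in-frame stop codon follows after 41 codons, 141 nt from the NTC.
MCM6 first 3′TC: gaaagtaacTGACcagagctg
MCM5 first 3′TC: atggcagggTAAGtgtgaggg

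MCM5 had 44 treated reads before its 3′TC and 0 after it, in 870 nt. Its first 3′TC lies 101 codons after the NTC, the longest stretch of the members, and a UGA follows 1 codon later. A count of 0 of 44 reads allows a share of up to 6.82% (3 reads), counting error only. Of 5 transcripts with a first 3′TC at that distance the median share after it was 1.16%.

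MCM2 and PCNA also had few reads after the 3′TC, 16 of 220 (7.27%) and 22 of 271 (8.12%). Among transcripts with a first 3′TC at the same distance, MCM2 lay within the quartiles of its 7 (7.21% and 13.3%). PCNA lay below those of its 19 (11.8% and 30.8%). MCM7 (22.2%), GINS2 (24.2%) and MCM4 (24.7%) lay nearer to the median of all transcripts, and MCM3 (13 of 29 reads) and CDC45 (4 of 9) rested on few reads. In MCM3 the libraries differed, with 11 of 18 reads after the 3′TC in G418 A and 2 of 11 in G418 B.

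**Figure D5:**
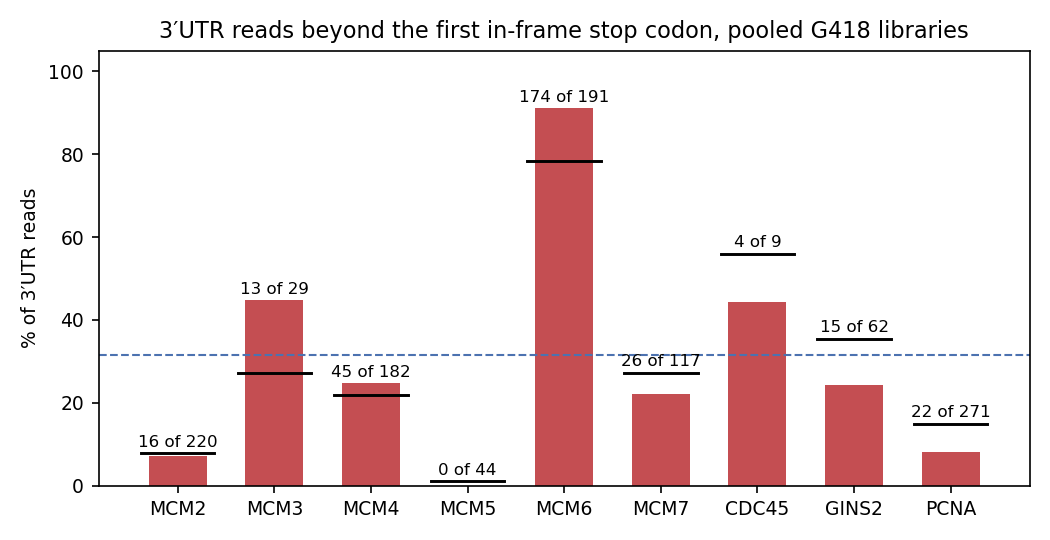
Share of 3′UTR reads that lie after the first in-frame 3′TC in pooled G418 libraries (bars, in percent from 0, with reads after of all 3′UTR reads), with a black line at the median of transcripts with a 3′TC at the same distance and a dashed line at the median of 31.4% over 2262 transcripts. MCM6 reaches 91.1% above its black line at 78.5%, and MCM5 is at 0.

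In the 5′UTRs of the members, of 7 tested for reads per CDS read 0 passed in edgeR (4 had an unadjusted p below 0.05, MCM2, MCM5, MCM7 and PCNA, all lower), against 1.70% of 3656 transcripts lower and 0.0274% higher after adjustment and 11.5% lower at that unadjusted p. The median log2 fold change was -0.73 over the members and -0.16 over all transcripts. Summed over the members, 5′UTR reads were 2.03% and 2.29% of CDS reads in untreated cells and 1.46% and 1.67% under G418.

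PCNA had the highest share, with 5′UTR reads at 9.30% and 12.9% of CDS reads in untreated cells and 7.93% and 8.57% under G418. The treated libraries lay below the untreated ones, with a log2 fold change of -0.41 (SE 0.155, adjusted p = 0.236 in edgeR). MCM5 went from 2.23% and 1.87% to 0.986% and 1.16% (-0.96, SE 0.320, adjusted p = 0.174 in edgeR). MCM7, the member with the longest counted 5′UTR (640 nt), went from 2.08% and 1.48% to 1.03% and 1.17% (-0.73, SE 0.261, adjusted p = 0.201 in edgeR).

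In these 3 genes, and in MCM2, the treated libraries lay below the untreated ones. How many of all transcripts had that order was not counted. MCM2 went from 0.706% and 0.620% to 0.292% and 0.425% on 29, 11, 10 and 12 reads. GINS2, with 1.47% and 4.07% against 0.661% and 1.89%, had untreated libraries that differed more from each other than the conditions did. MCM3 had no 5′UTR read in any library and CDC45 had 1 to 4, neither of them tested. MCM4 (0.301% and 0.231% against 0.193% and 0.305%) and MCM6 (0.641% and 0.656% against 0.420% and 0.660%) had conditions that overlapped.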

How the data were processed

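RPFs of HEK293T cells were profiled in 2 untreated and 2 G418 libraries. The authors collapsed reads by sequence and UMI, discarded noncoding RNA, aligned with STAR to hg38 (CASAVA 1.8 per the labels' processing notes) and assigned RPFs of 28 to 35 nt to 1 transcript per gene. The deposited counts were not normalized. The authors' RPM values scale RPFs to mapped reads. The deposited RPKM densities and RRTS ratio leave out 18 and 15 nt of the CDS ends and 6 nt after the NTC. The deposited 5′UTR densities, held as a score, were not used.

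Whole reads were recovered from RPM (100% within 0.01 of a whole read). CDS counts were tested with edgeR 4.0.16 (TMM, low-count filter) for transcripts in all 4 tables. Readthrough (at least 10 reads before the 3′TC and 128 mRNA reads per condition) and 5′UTR reads (at least 20) used log(CDS reads + 0.5) as offset. RRTS percentiles used transcripts in all tables with at least 128 pooled mRNA reads. Alternatives were DESeq2 1.42.0, other filters and scalings, the replicate letter and single libraries left out. Tests were checked on simulated data. All members were named, and of each list up to 2 rises and 2 falls past the threshold with the same sign from A to A and B to B. The members and lists were chosen with earlier results of these data known. Sequences come from GENCODE v44 and RefSeq, and windows on the chromosome of MCM4 were left out. With 2 against 2 libraries an exact permutation test could not go below p = 0.333. Python 3.11.15 and R 4.3.3 were used.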

Additional observations from a re-analysis of the deposited data

How the results depend on the processing

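Readthrough was higher for every member tested with DESeq2 (8 of 8), at least 20 reads (6 of 6) and the replicate block (8 of 8). With no read minimum and over the whole 3′UTR, CDC45 was also tested and did not pass, and the other 8 were higher. Most members tested reached the read minimum through treated reads, so these counts are a description only. No alternative changed the sign of a member's CDS or readthrough difference. The number of members with fewer CDS reads went from 3 to 0 with library totals and ranged from 0 to 8 when single libraries were left out. Pathway genes past the threshold went from 9 to 4 with DESeq2 and to 17 with the replicate block, and ranged from 1 to 34 with single libraries left out. For 5′UTR reads, leaving out single libraries gave 0 to 2 members past the threshold. With single libraries left out, the 5′UTR log2 difference ranged from -0.51 to 0.15 for MCM4 (above 0 without untreated A or G418 A) and from -0.62 to 0.030 for MCM6 (above 0 without G418 A), none past the threshold. The cause of these changes was not tested. The letters A and B pair the libraries by label only, and their deviations correlated at 0.136 over 8494 transcripts. The replicate block gave 3 lower members again. Over all transcripts, CDS reads higher and lower numbered 451 and 273, 113 and 137 with DESeq2, 887 and 120 with library totals, 618 and 452 with the replicate block, and 57 to 990 and 15 to 1092 without single libraries. Transcripts with higher readthrough numbered 2336 of 2827 tested, 1408 of 2827 with DESeq2 and 1852 of 2827 with the replicate block. They numbered 1536 of 1662 with at least 20 reads, 2615 of 5815 with no read minimum and 2872 of 4086 over the whole 3′UTR. Transcripts with lower readthrough numbered 2, 1 with DESeq2 and 10 over the whole 3′UTR. Those with more 5′UTR reads numbered 1, 5 with the replicate block and 0 to 52 without single libraries, and those with fewer 62 and 7 to 278. Depth limits CDC45, MCM3 and MCM6, whose readthrough rests on 5, 16 and 17 treated reads.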
